A study of Mus musculus with 2 samples.

Results

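The genes described here are the collagens, laminins and other proteins of the extracellular matrix, 52 genes of the 27998 listed in the count tables of the adult mouse mammary epithelium. They were chosen by symbol and fall into 9 groups by role: 17 genes of the basement membrane, 2 anchoring collagens, 6 fibrillar collagens, 7 other interstitial collagens, 3 small leucine-rich proteoglycans, 6 elastic fibre and adhesive glycoproteins, 6 matricellular proteins, 3 tissue inhibitors of metalloproteinases and 2 crosslinking enzymes. All 52 were found in the tables and 51 had a count in both libraries. The exception was Lama2, without a count in the sorted basal library.

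The study profiled single cells of the mammary gland with the 10X Chromium system, in which the RNA of each droplet shares a barcode and every captured molecule carries a random tag (UMI) so that it is counted once. Total epithelial cells (Lin-CD24+) and sorted basal cells (Lin-CD29hiCD24+) were taken from adult mice of the inbred strain FVB/NJ that were 10 weeks old and had received no treatment. Lin- means that cells carrying TER119, CD31 or CD45, surface proteins of red cells, endothelium and leukocytes, were removed by sorting. The mice of each population were pooled before capture, 4 in the sorted basal pool and 8 in the series, and each population is 1 library, so no difference given here has a replicate check and no test was made.

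Matrix is laid down in distinct forms around the mammary ducts. The basement membrane is a thin sheet of laminin and type IV collagen networks, joined by nidogens and the heparan sulfate proteoglycans perlecan and agrin, on which the basal (myoepithelial) cells rest. Outside it lies the interstitial matrix, in which fibroblasts assemble rope-like fibrils of collagens I, III and V together with proteoglycans and elastic fibres.

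Promoter sequences are shown for members whose class patterns differ within a family or run together. They are from RefSeq (build GRCm38.p6), written 5′ to 3′ on the strand of the gene and in lower case. Capitals mark 3 motifs on either strand. The GC box was searched as GGGCGG. The CCAAT box was searched by the letters of its name. The TATA box was searched as TATAAA. Col4a1 and Col4a2, the chains of the main type IV collagen, are transcribed away from each other from starts that overlap by 22 bases at chr8:11312805-11312826, and those bases hold 1 GC box.
Col4a1 and Col4a2 overlap (plus strand): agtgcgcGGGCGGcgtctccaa
The bases before the start of Lama5 (chr2:180225860-180226109, minus strand), a laminin chain that was higher in luminal cells, hold 4 GC boxes.
Lama5: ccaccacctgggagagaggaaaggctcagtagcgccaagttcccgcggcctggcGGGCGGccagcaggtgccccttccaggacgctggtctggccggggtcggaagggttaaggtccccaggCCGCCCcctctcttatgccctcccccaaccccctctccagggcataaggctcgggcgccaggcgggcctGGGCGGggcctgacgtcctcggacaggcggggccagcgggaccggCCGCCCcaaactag
Col3a1 (chr1:45311288-45311537, plus strand), the fibrillar collagen with the widest spread between classes, has 1 TATA box and no GC box in this window.
Col3a1: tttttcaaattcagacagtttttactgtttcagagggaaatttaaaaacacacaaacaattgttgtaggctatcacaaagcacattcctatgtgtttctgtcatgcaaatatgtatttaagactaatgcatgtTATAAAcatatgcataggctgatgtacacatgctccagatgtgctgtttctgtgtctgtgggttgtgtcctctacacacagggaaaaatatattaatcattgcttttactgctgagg
Col6a1 (chr10:76726169-76726294, minus strand) and Col6a3 (chr1:90843972-90844221, minus strand) encode chains of type VI collagen. Both were higher in stromal than basal cells, but only Col6a3 was high in luminal cells. Neither window has any of the 3 motifs.
Col6a1: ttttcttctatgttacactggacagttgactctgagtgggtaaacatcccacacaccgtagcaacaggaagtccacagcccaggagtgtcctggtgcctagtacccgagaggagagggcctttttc
Col6a3: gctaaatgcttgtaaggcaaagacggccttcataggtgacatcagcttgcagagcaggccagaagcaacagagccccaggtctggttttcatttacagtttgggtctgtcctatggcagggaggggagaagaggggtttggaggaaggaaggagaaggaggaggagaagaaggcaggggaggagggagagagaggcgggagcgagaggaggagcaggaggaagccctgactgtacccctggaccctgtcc
Col8a1 (chr16:57754738-57754987, minus strand), a short-chain collagen with the same luminal pattern as Col6a3, has 4 GC boxes.
Col8a1: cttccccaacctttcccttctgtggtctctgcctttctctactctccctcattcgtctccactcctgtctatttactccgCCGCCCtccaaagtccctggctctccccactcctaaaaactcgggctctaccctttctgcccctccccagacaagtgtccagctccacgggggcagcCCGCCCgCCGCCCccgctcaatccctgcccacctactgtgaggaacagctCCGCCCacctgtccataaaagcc
RefSeq promoter windows were at hand for 34 members, 41 windows in all. The windows compared run from 250 bases before to 50 after each start. A GC box was present in 68.3% of them, against 35.7% of the 32851 windows of all genes. A CCAAT box was in 31.7% against 37.4%, and a TATA box in 12.2% against 13.6%. These are matches of letters, not binding sites.

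Cells of the total epithelial library were divided by keratin and actin counts. Cells with 10 or more counts of Krt5, Krt14 and Acta2 together formed the basal class (1306 cells, 39.6%), other cells with 3 or more counts of Krt8, Krt18 and Krt19 the luminal class (1889 cells, 57.2%), and cells in neither the stromal class (107 cells, 3.24%). Depth differed between them, with medians of 1838, 3029 and 1237 counts per cell. Levels are pooled counts of a class per 1000000 counts of that class (CPM) with exact Poisson 95% intervals, and ratios carry exact conditional 95% intervals. All intervals express counting error in these libraries only. The lowest level that 3 counts could give was 1.08 CPM in basal, 0.479 in luminal and 16.3 in stromal cells.

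Markers that the split did not use separated basal from luminal cells. The summed level of 8 basal markers was 18359 CPM in the basal class and 79.6 CPM in the luminal class, and that of 7 luminal markers was 2620 and 12749 CPM. The stromal class was mixed. Of its 107 cells, 25 had counts for 2 or more fibroblast markers, 17 for endothelial, 11 for pericyte, 17 for Schwann, 6 for luminal and 33 for basal markers, in part the same cells, and 15 had none of these sets. The fibroblast set was not confined to stromal cells, since 126 basal-class and 13 luminal cells also had 2 or more of its markers. Among these markers Gsn stood at 979 CPM and Serpinf1 at 123 CPM in the basal class. The sort removes cells with CD31, so the cells with endothelial markers had passed it. Of 7 immune markers, Ptprc, the leukocyte antigen CD45, had no count in any class, but others did. Lyz2 stood at 391 CPM in stromal cells and Cd74 at 40.0 CPM in basal cells. No stromal cell had 2 or more immune markers. In the basal class 727 cells also reached the luminal threshold, and 32 had no Krt5 or Krt14 count and entered through Acta2 alone, 17 of them with a pericyte marker. Counts of markers outside their own class serve as a yardstick only. Free RNA, mixed droplets and expression by the class itself were not told apart in them. The 8 basal markers stood in luminal cells at 0.257 to 3.88% (median 0.425%) of their basal level. The 7 luminal markers stood in basal cells at 6.57 to 53.7% (median 8.42%) of their luminal level.

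By summed level the matrix genes were highest in stromal cells and lowest in luminal cells. Together the 52 members took 5939 CPM (5848 to 6030) in basal, 1369 CPM (1340 to 1398) in luminal and 23181 CPM (22491 to 23887) in stromal cells. Of the members with 10 or more counts over the basal and luminal classes, 29 of 46 (63.0%) were at least 4-fold higher in basal cells, where 10.1% of all genes were. The median log2 basal to luminal ratio was 4.29 for members and 0.01 for all genes. In the other direction 3 of 46 members (6.52%), Col6a3, Col8a1 and Lum, were at least 4-fold higher in luminal cells, near the 7.60% of all genes. Between stromal and basal cells, 22 of 50 members (44.0%) were at least 4-fold higher in stromal cells, against 6.94% of all genes. Another 4 (8.00%), Lama3, Lamb3, Col17a1 and Col9a2, were at least 4-fold higher in basal cells, against 3.66%. Of these, Lama3 and Col17a1 had 1 stromal count each and Lamb3 had 2. Lama1 and Col7a1 had no stromal count and were not called. With the stromal class set to 3 counts they were at least 3.36-fold and 1.73-fold higher in basal cells. Between stromal and luminal cells, 37 of 46 members (80.4%) were at least 4-fold higher in stromal cells, against 10.2% of all genes. Another 2 (4.35%), Lama5 and Col8a1, were at least 4-fold higher in luminal cells, near the 4.14% of all genes. The Poisson interval of the highest class lay clear of the next class for 9 members in basal, 2 in luminal and 29 in stromal cells.

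**Figure D1:**
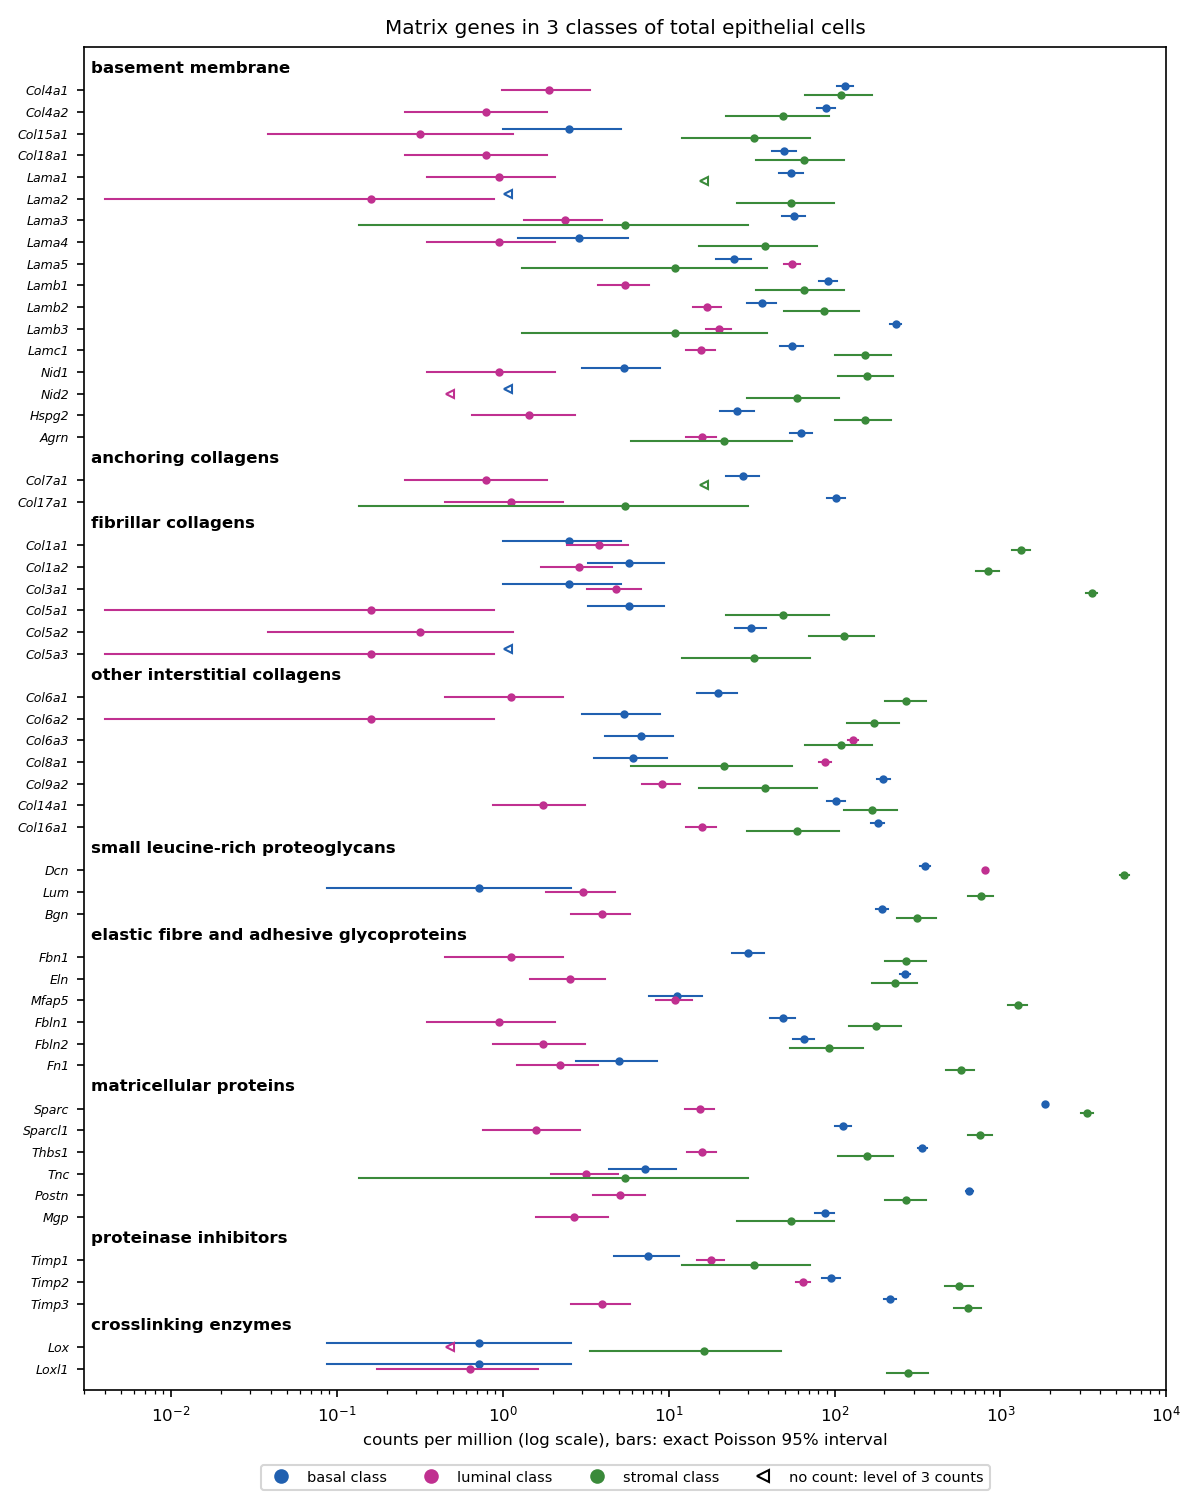
Level of each of the 52 matrix genes in the basal, luminal and stromal classes of the total epithelial library, in CPM on a log axis, with exact Poisson 95% intervals as bars. Open triangles mark the level of 3 counts where a class had no count. Basement membrane genes such as Lamb3 (234 CPM in basal cells) are high in basal cells, while Col1a1, Col1a2 and Col3a1 lie between 841 and 3545 CPM in stromal cells and below 6 CPM in the other classes.

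The groups took different positions between the classes. The basement membrane group summed to 907 CPM in basal, 140 CPM in luminal and 1069 CPM in stromal cells, 6.47-fold (5.99 to 6.99) higher in basal than in luminal cells with a stromal to basal ratio of 1.18 (1.01 to 1.36). With a basal threshold of 20 counts that ratio was 0.987, so stromal and basal cells had no stable order for this group. The fibrillar group summed to 47.9, 12.1 and 5912 CPM in the same order and was 123-fold (103 to 149) higher in stromal than in basal cells. Since a molecule is counted once whatever its length, counts of the groups can be set against each other within a class, although capture may differ between genes. Basal cells held 2518 basement membrane counts to 133 fibrillar counts, a ratio of 18.9 (15.9 to 22.7). In luminal cells the ratio was 879 to 76, or 11.6 (9.14 to 14.8). Stromal cells had the reverse, 197 to 1089, or 5.53 (4.75 to 6.47) fibrillar counts for each basement membrane count. Fibrillar ratios to the basal class rest on these 133 basal counts, and with the basal threshold raised from 10 to 20 counts the 123-fold difference was 82.5-fold.

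**Figure D2:**
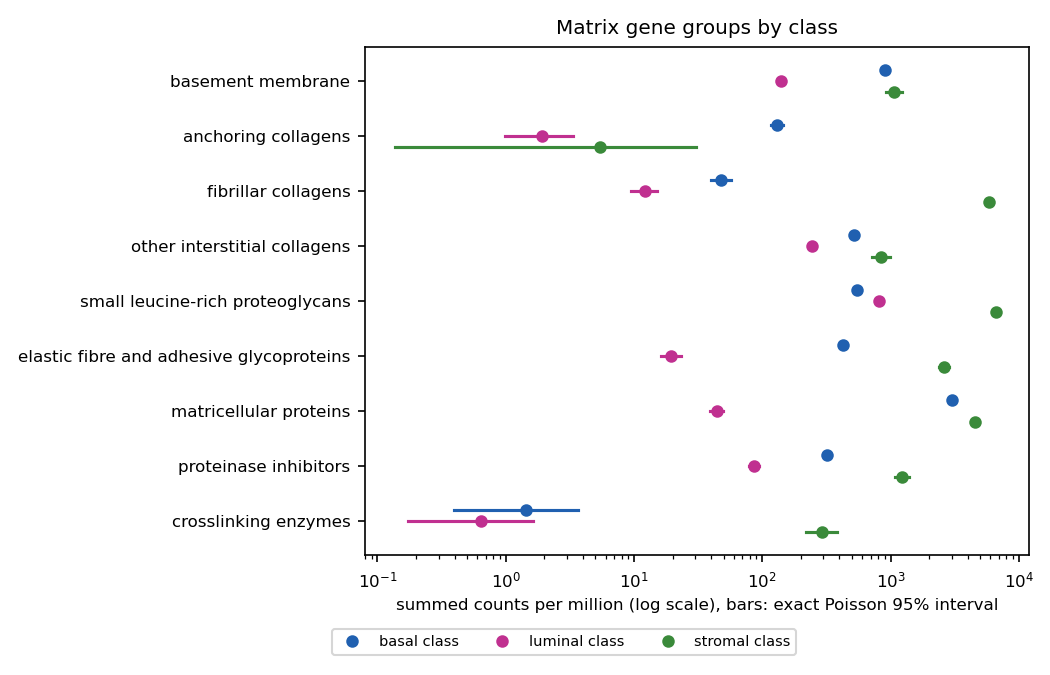
Summed level of each group of matrix genes in the 3 classes of the total epithelial library, in CPM on a log axis, with exact Poisson 95% intervals as bars. Basement membrane genes reach 907 CPM in basal and 1069 CPM in stromal cells, whereas fibrillar collagens reach 47.9 and 5912 CPM.

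Type IV collagen is the network-forming collagen of basement membranes. Col4a1 stood at 115 CPM (103 to 129) in basal, 1.91 CPM (0.989 to 3.34) in luminal and 109 CPM (66.3 to 168) in stromal cells. Its partner chain Col4a2 stood at 89.0, 0.798 and 48.9 CPM. Both were far above luminal cells in the basal class, 60.2-fold (34.0 to 118) and 112-fold (47.1 to 346), while basal and stromal intervals overlapped. Their luminal levels, 1.66 and 0.897% of the basal level, lay within the range of the basal markers. Among the 242 basal cells with a Col4a1 count, 25.6% (20.2 to 31.6) also had Col4a2, against 13% (11 to 15.1) of the 1064 basal cells without it, at median depths of 2482 and 1739 counts. The part of depth in this difference was not tested. In the stromal class, 10 of the 20 Col4a1 counts came from the 11 cells with pericyte markers and 9 from the 33 with basal markers. Of the 9 stromal Col4a2 counts, 5 were in the pericyte-marker cells and 6 in the basal-marker cells. Marker sets can share cells.

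Laminins are heterotrimers of an α, a β and a γ chain. The α3 and β3 chains of laminin-332, the laminin that anchors stratified and basal epithelium, were basal. Lamb3 stood at 234 CPM (216 to 253) in basal, 20.1 CPM (16.7 to 23.9) in luminal and 10.9 CPM (1.31 to 39.2) in stromal cells, and was found in 34.4% of basal cells. Lama3 stood at 56.9, 2.39 and 5.43 CPM, with 1 stromal count. The luminal share of the basal level was 8.59% for Lamb3 and 4.21% for Lama3, both above the 3.88% of the highest basal marker. A Lamb3 count was present in 49.3% (40.8 to 57.8) of the 142 basal cells with Lama3 and in 32.6% (29.9 to 35.3) of the 1164 without, at median depths of 2306 and 1798.

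The α chains divided the classes. Lama1, the chain of the classical basement membrane laminin, stood at 54.8 CPM (46.4 to 64.2) in basal and 0.957 CPM in luminal cells and had no stromal count, which allows up to 20 CPM there. Lama2, typical of muscle and nerve, had no basal count, 1 luminal count and 10 stromal counts (54.3 CPM, 26.0 to 99.8), all 10 in cells with fibroblast markers, at least 50.2-fold higher in stromal than basal cells. Lama4, a chain of vessel walls, was at 2.88, 0.957 and 38.0 CPM. Lama5 was the member of the group with the opposite order of epithelial classes, 24.9 CPM (19.3 to 31.5) in basal and 55.5 CPM (49.8 to 61.7) in luminal cells, 2.23-fold (1.72 to 2.94) higher in luminal cells, with 10.9 CPM in stromal cells. Each class thus had a different α chain above the level of the others: Lama1 and Lama3 in basal, Lama5 in luminal, and Lama2 and Lama4 in stromal cells.

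The shared β and γ chains were less divided. Lamb1 stood at 91.1, 5.43 and 65.1 CPM in basal, luminal and stromal cells, 16.8-fold (11.7 to 24.8) higher in basal than luminal cells. Lamb2 was at 36.4, 17.1 and 86.9 CPM, 2.13-fold (1.61 to 2.82) higher in basal than luminal cells. Lamc1, the common γ chain, was at 55.1, 15.6 and 152 CPM, 3.52-fold (2.72 to 4.59) higher in basal than luminal cells.

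Linker and proteoglycan genes of the basement membrane leaned to stroma. Nid1, which bridges laminin and type IV collagen, stood at 5.40 CPM in basal, 0.957 CPM in luminal and 157 CPM (105 to 226) in stromal cells, 29.1-fold (15.1 to 58.5) higher in stromal than basal cells. Its paralog Nid2 had no count in either epithelial class and 11 in stromal cells, 7 of them in the 17 cells with Schwann markers. Of the 29 stromal Nid1 counts, 89.7% were in fibroblast-marker cells. Hspg2 (perlecan) was at 25.9, 1.44 and 152 CPM, 5.86-fold (3.65 to 9.19) higher in stromal than basal cells, and 3.61-fold with a basal threshold of 20 counts. Agrn (agrin) ran the other way, at 63.0 CPM (54.0 to 73.1) in basal, 15.8 CPM (12.8 to 19.2) in luminal and 21.7 CPM (5.92 to 55.6) in stromal cells. Its basal to luminal ratio of 3.99 (3.10 to 5.16) lay just under the 4-fold line. Of the multiplexins, Col18a1 was at 49.7, 0.798 and 65.1 CPM and Col15a1, with 15 counts over the 3 classes, at 2.52, 0.319 and 32.6 CPM.

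Anchoring collagens fasten epithelium to the matrix below. Col17a1, the transmembrane collagen of hemidesmosomes, stood at 102 CPM (90.7 to 115) in basal, 1.12 CPM (0.449 to 2.30) in luminal and 5.43 CPM (1 count) in stromal cells, and was found in 16.7% of basal cells. Col7a1, which forms anchoring fibrils, was at 28.1 CPM in basal and 0.798 CPM in luminal cells, with no stromal count. As a group they were 68.1-fold (38.5 to 133) higher in basal than luminal cells and 24.0-fold (4.28 to 951) higher than in stromal cells. The latter rests on 1 stromal count and was 3.78-fold with a basal threshold of 20 counts.

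The fibrillar collagens I and III were stromal genes in this library. Col3a1 stood at 2.52 CPM (1.01 to 5.2) in basal, 4.79 CPM (3.23 to 6.83) in luminal and 3545 CPM (3278 to 3828) in stromal cells, 1406-fold (679 to 3511) higher in stromal than basal cells. Col1a1 was at 2.52, 3.83 and 1330 CPM and Col1a2 at 5.76, 2.87 and 841 CPM, 528-fold (252 to 1326) and 146-fold (87.1 to 262) higher in stromal than basal cells. Without cells of both keratin sets these ratios were 220 and 76.0. A Col3a1 count was present in 46.7% of stromal cells (37.0 to 56.6), 0.536% of basal and 0.529% of luminal cells, and thinning each cell to 800 counts gave 41.1, 0.214 and 0.211%. Median depths of the basal and luminal classes were 1838 and 3029 counts, and the source of their Col3a1 counts was not tested. The 25 fibroblast-marker cells held 85.0% of the stromal Col3a1 counts and 86.5% of those of Col1a1, and the 17 cells with Schwann markers held 9.65% of Col3a1.

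Type V collagen, which starts and limits the growth of collagen I fibrils, differed from its group in basal cells. Col5a2 stood at 31.3 CPM (25.1 to 38.7) in basal, 0.319 CPM in luminal and 114 CPM (70.6 to 174) in stromal cells. That was 98.2-fold (26.4 to 824) higher in basal than luminal cells and 3.64-fold (2.14 to 5.91) higher in stromal than basal cells. Its neighbour 24614 bases away on chromosome 1 is Col3a1, at 2.52 CPM in the same basal cells. Col5a1 was at 5.76, 0.160 and 48.9 CPM. Col5a3 had 7 counts in the library, 6 of them stromal, too few for a comparison. Of the 133 fibrillar counts of the basal class, 87 were from Col5a2 and 16 from Col5a1.

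A small number of cells carried most fibrillar counts. In the total epithelial library 53 cells (1.61%) with 3 or more fibrillar counts held 88.8% of them, and 46 of these cells were in the stromal, 3 in the basal and 4 in the luminal class. All luminal Col3a1, Col1a1 and Mfap5 counts fell in 10 cells or fewer. Levels of these genes in the epithelial classes are therefore levels of a few cells, and their part as doublets or misplaced cells was not tested.

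**Figure D3:**
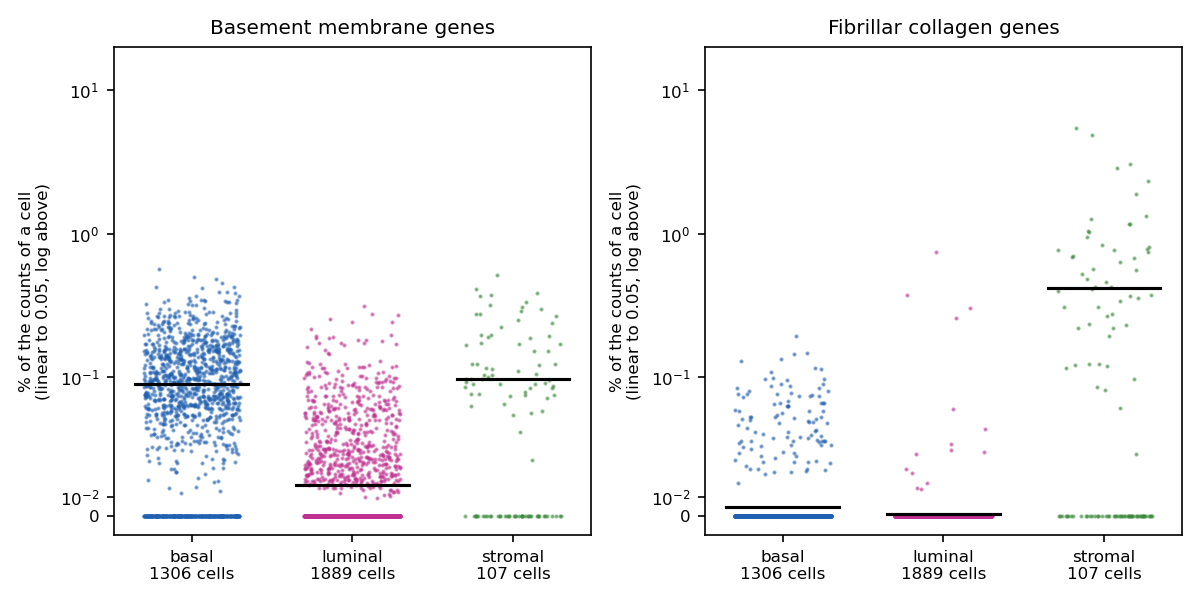
Share of the counts of each cell taken by basement membrane genes (left) and by fibrillar collagen genes (right), in percent, for the 1306 basal, 1889 luminal and 107 stromal cells. The axis is linear up to 0.05% and logarithmic above, points are cells and black lines are means. Basement membrane counts are spread over the basal cells, while fibrillar counts are gathered in stromal cells and a few others.

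Among the other interstitial collagens, the chains of type VI collagen did not keep together. Col6a1 stood at 19.8 CPM (14.9 to 25.8) in basal, 1.12 CPM (0.449 to 2.30) in luminal and 271 CPM (201 to 358) in stromal cells. Col6a2, on the same chromosome 85161 bases away, was at 5.40, 0.160 and 174 CPM. Col6a3 instead stood at 6.84 CPM (4.12 to 10.7) in basal, 130 CPM (121 to 139) in luminal and 109 CPM (66.3 to 168) in stromal cells. In luminal cells Col6a3 was 18.9-fold (12 to 31.6) higher than in basal cells, while Col6a1 was 17.7-fold (8.06 to 46.2) higher in basal cells. A Col6a3 count was present in 19.5% of luminal cells (17.8 to 21.4) against 0.265% for Col6a1 and 0.0529% for Col6a2. At 800 counts per cell the Col6a3 share was 8.07% in luminal and 0.258% in basal cells.

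Col8a1 had the same luminal pattern. It stood at 6.12 CPM (3.57 to 9.80) in basal, 88.2 CPM (81.0 to 95.9) in luminal and 21.7 CPM (5.92 to 55.6) in stromal cells, and was found in 17.4% of luminal cells. The basal levels of Col6a3 and Col8a1 were 5.28 and 6.94% of their luminal levels, both under the 8.42% at the median of the luminal markers. Without cells of both keratin sets their basal to luminal ratios, 0.0528 and 0.0694, were 0.0233 and 0.0228.

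Col9a2, Col14a1 and Col16a1 are fibril-associated collagens with interrupted triple helices. Col9a2 and Col16a1 were highest in basal cells, while Col14a1 was a basal and stromal gene. Col9a2, better known from cartilage, stood at 197 CPM (181 to 215) in basal, 9.09 CPM (6.89 to 11.8) in luminal and 38.0 CPM (15.3 to 78.3) in stromal cells. Col16a1 was at 183, 15.8 and 59.7 CPM and Col14a1 at 102, 1.76 and 168 CPM. Shares of basal cells with a count were 28.8% for Col9a2, 28.0% for Col16a1 and 17.6% for Col14a1. Of the 31 stromal Col14a1 counts, 96.8% were in the 25 fibroblast-marker cells, while the basal counts came from 230 cells.

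Small leucine-rich proteoglycans bind collagen fibrils and set their spacing. Dcn (decorin) stood at 351 CPM (329 to 374) in basal, 811 CPM (789 to 833) in luminal and 5559 CPM (5224 to 5910) in stromal cells, in 25.6, 21.8 and 25.2% of the cells. Thinned to 800 counts the shares were 15.9, 14 and 24.4%. Counts per positive cell had means of 2.92 in basal, 12.4 in luminal and 37.9 in stromal cells. Bgn (biglycan) was a basal and stromal gene, at 194 CPM (178 to 211), 3.99 CPM (2.58 to 5.89) and 315 CPM (239 to 407). Lum (lumican), 46984 bases from Dcn on chromosome 10, stood at 0.720 CPM (2 counts), 3.03 CPM (19 counts) and 760 CPM (639 to 897), and all 140 stromal counts were in fibroblast-marker cells. Its luminal counts came from 4 cells, and the luminal to basal ratio of 4.21 (1.02 to 37.3) turned to a basal to luminal ratio of 1.12 with a luminal threshold of 10 counts.

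Elastic fibre genes divided between the basal and stromal classes. Eln (elastin) stood at 267 CPM (248 to 287) in basal, 2.55 CPM (1.46 to 4.15) in luminal and 233 CPM (169 to 314) in stromal cells, and 34.9% of basal cells had a count. Fbn1 (fibrillin-1), the scaffold of the fibre, was at 30.3, 1.12 and 271 CPM. Fbln1 stood at 49.0, 0.957 and 179 CPM and Fbln2 at 65.2, 1.76 and 92.3 CPM, both matrix glycoproteins of the fibulin family. Mfap5, a microfibril protein, was at 11.2, 10.9 and 1270 CPM, with 99.6% of its stromal counts in fibroblast-marker cells. Fn1 (fibronectin), the adhesive glycoprotein of provisional matrix, was at 5.04, 2.23 and 575 CPM, 114-fold (65.1 to 216) higher in stromal than basal cells and wholly in fibroblast-marker cells there. Without cells of both keratin sets the ratio was 63.5.

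Matricellular proteins act on cells without building the scaffold. Sparc stood at 1844 CPM (1793 to 1895) in basal, 15.5 CPM (12.6 to 18.9) in luminal and 3328 CPM (3070 to 3602) in stromal cells. It was found in 90.9% of basal cells (89.2 to 92.4), 2.91% of luminal cells (2.20 to 3.77) and 78.5% of stromal cells. Thinned to 800 counts the shares were 72.8, 1.17 and 70.9%. Sparc was present in all 4 kinds of stromal cell by marker, at 3722 CPM in fibroblast-marker, 3517 in endothelial-marker, 6039 in pericyte-marker and 7629 in Schwann-marker cells. Postn (periostin) stood at 649 CPM (619 to 680) in basal, 5.11 CPM in luminal and 271 CPM (201 to 358) in stromal cells, and Thbs1 (thrombospondin-1) at 338, 16.0 and 157 CPM. Postn and Thbs1 were thus higher in basal than stromal cells, 2.39-fold (1.81 to 3.23) and 2.15-fold (1.48 to 3.22). Mgp (matrix Gla protein, an inhibitor of calcification) was at 87.2, 2.71 and 54.3 CPM, and Tnc (tenascin-C) at 7.20, 3.19 and 5.43 CPM.

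Sparcl1, a relative of Sparc, stood at 113 CPM (101 to 126) in the basal class, 1.60 CPM in luminal and 755 CPM (634 to 891) in stromal cells. Its basal level came mostly from the 32 basal-class cells without Krt5 or Krt14, which held 2.20% of the counts of the class and 69.7% of its Sparcl1 counts. Sparcl1 stood at 3591 CPM in them and 35 CPM in the other basal cells. The stromal to basal ratio of Sparcl1, 6.67 in all, was 21.6 without these 32 cells and 2.80 without cells of both keratin sets. In the 32 cells and the rest, Sparc was at 1345 and 1855 CPM, Postn at 98.4 and 661 CPM and Lamb3 at 0 and 239 CPM.

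Tissue inhibitors of metalloproteinases block the enzymes that degrade matrix. Timp3, which binds the matrix itself, stood at 217 CPM (200 to 235) in basal, 3.99 CPM (2.58 to 5.89) in luminal and 635 CPM (525 to 761) in stromal cells. Timp2 was at 95.8, 64.6 and 565 CPM, 1.48-fold (1.27 to 1.73) higher in basal than luminal cells. Timp1 was at 7.56, 18.0 and 32.6 CPM, 2.38-fold (1.49 to 4) higher in luminal than basal cells. The crosslinking enzyme Loxl1, which acts on elastin, was stromal, at 0.720, 0.638 and 277 CPM (206 to 364), and 98.0% of its 51 stromal counts were in fibroblast-marker cells. Lox, which crosslinks collagen, had 5 counts in the library, too few to compare.

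Luminal cells were then divided by whether their counts of 6 luminal progenitor markers (Csn3, Wfdc18, Trf, Kit, Elf5 and Aldh1a3) or of 6 mature luminal markers (Prlr, Cited1, Stc2, Ly6d, Areg and Pgr) were higher, a rule set after the tables had been seen. The progenitor side held 806 cells (median 2864 counts), the mature side 1078 (median 3122), 5 cells were tied, and 61 had sums within 2-fold of each other. Of 32 members with 10 or more counts over both sides, 6 (18.8%) were at least 2-fold higher on the mature side, near the 18.7% of all genes, and 14 (43.8%) were at least 2-fold higher on the progenitor side, against 12.7% of all genes. The median log2 ratio of mature to progenitor side was 0.28 for all genes and -0.65 for members.

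The luminal collagens belonged to the mature side. Col6a3 stood at 23.4 CPM (18.0 to 29.9) on the progenitor and 210 CPM (195 to 226) on the mature side, in 4.47 and 30.9% of cells, 8.99-fold (6.95 to 11.8) higher. Col8a1 was at 33.0 and 130 CPM, in 7.20 and 25% of cells, 3.93-fold (3.12 to 4.98) higher. Dcn was at 238 and 1246 CPM, 5.24-fold (4.82 to 5.70) higher on the mature side, with 62.2% of the progenitor-side counts in 10 cells. Lama5 was at 24.5 and 79.1 CPM, 3.23-fold (2.46 to 4.29) higher on the mature side, and its partner chain Lamc1 at 9.27 and 20.5 CPM, 2.21-fold (1.39 to 3.63) higher. Lum was called on 19 counts, and its interval of 0.903 to 11.7 spans 1.

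Some of the genes that were high in basal cells were higher on the progenitor side. Lamb3 stood at 39.3 CPM (32.2 to 47.6) on the progenitor and 5.61 CPM (3.43 to 8.67) on the mature side, 7.01-fold (4.32 to 11.9) higher. Col16a1 was at 33.4 and 2.52 CPM, Col9a2 at 18.5 and 1.12 CPM and Thbs1 at 31.2 and 3.93 CPM. Levels in CPM of the 3 genes were 13.2-fold (6.67 to 29.9), 16.5-fold (6.07 to 63.0) and 7.93-fold (4.48 to 15.1) higher on the progenitor side. Lamb1 (2.42-fold) and Timp3 (4.19-fold) were also higher there. Timp2, which was highest in stromal cells, stood at 105 and 34.5 CPM, in 24.4 and 9.74% of cells. Other basal genes had no such lean. Sparc, at 17.4 and 13.7 CPM, and Postn, at 4.45 and 5.33 CPM, had overlapping intervals on the sides. Progenitor to mature ratios of Eln (0.793), Bgn (0.514), Sparcl1 (0.567), Col4a1 (1.32) and Mgp (1.49) had intervals that span 1.

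Other calls on the progenitor side rested on few cells. The 64 Mfap5 counts there came from 3 cells, and those of Col3a1 (23 counts) and Col1a1 (21 counts) from 5 and 6 cells. Col14a1 had 10 counts from 3 cells and Fn1 10 counts from 4 cells, with a ratio for Fn1 of 3.31 whose interval (0.954 to 14.4) spans 1. Fbln2 had 10 counts from 7 cells. More widely spread, Tnc had 20 counts from 18 cells on the progenitor and none on the mature side, at least 8.82-fold higher.

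**Figure D4:**
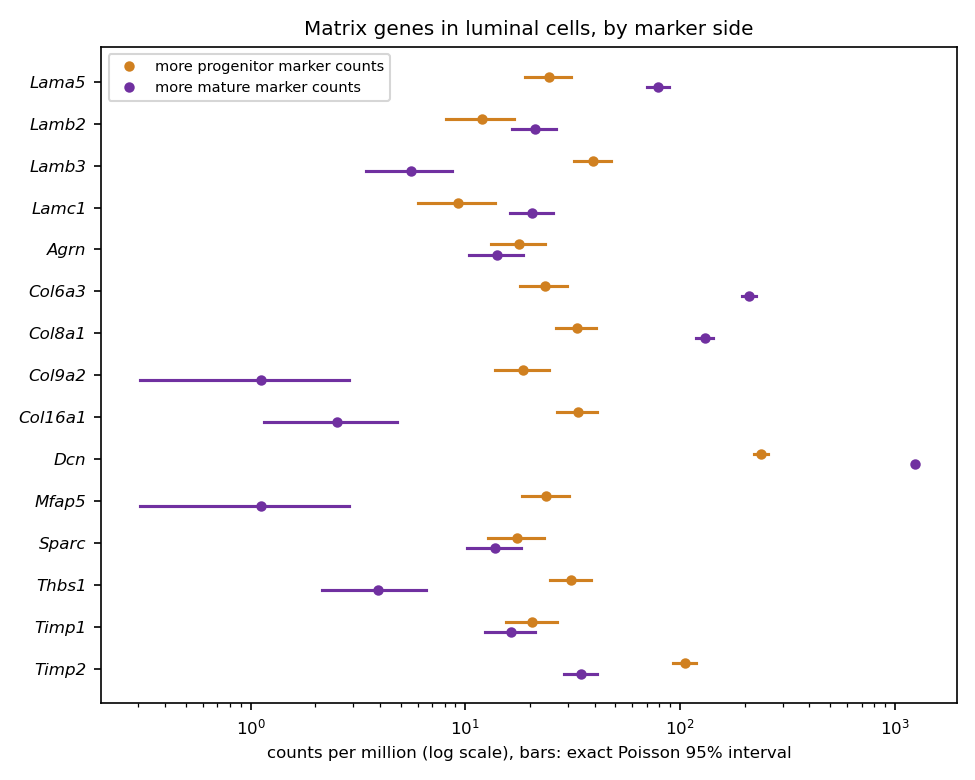
Level of the matrix genes with 50 or more counts in luminal cells and a count on both sides, in CPM on a log axis, for the 806 cells with more progenitor marker counts and the 1078 cells with more mature marker counts, with exact Poisson 95% intervals as bars. Col6a3, Col8a1, Dcn and Lama5 lie higher on the mature side and Lamb3, Col9a2, Col16a1, Thbs1 and Timp2 on the progenitor side.

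The sorted basal library was compared with the basal class of the total epithelium. It held 4771 cells with 137 to 1946 counts each (median 487), against 1838 at the median of the basal class. Of its cells 1758 reached the basal threshold of 10 counts, 199 of the others the luminal threshold, and 2814 neither. Sort, depth and pool of mice differ together between the libraries and cannot be told apart. The sorted library was also taken whole, while the basal class holds only cells at or above the basal threshold. Ribosomal protein genes took 4.22% of the counts in sorted basal cells and 8.27% in the basal class, and the median log2 ratio over all genes was 0.46. The libraries shared 28 barcodes.

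Most matrix genes were higher in the sorted basal library. Of 50 members with enough counts, 29 (58.0%) were at least 2-fold higher there, against 29.8% of all genes, and 1, Col8a1, was at least 2-fold lower, against 15.8%. The basement membrane group stood at 1998 CPM in sorted basal cells and 907 CPM in the basal class, 2.20-fold (2.10 to 2.31) higher. Lamb3 was at 715 and 234 CPM, Eln at 715 and 267 CPM, Col16a1 at 593 and 183 CPM and Postn at 1406 and 649 CPM. Sparc was nearly level, at 2040 and 1844 CPM, a ratio of 1.11 (1.06 to 1.15). Dcn, at 254 and 351 CPM, and Mgp, at 48.6 and 87.2 CPM, were lower in sorted basal cells, 0.724-fold (0.654 to 0.801) and 0.558-fold (0.445 to 0.697). Of the luminal collagens, Col8a1 was lower in the sorted library, at 0.804 and 6.12 CPM. Col6a3 was at 3.62 and 6.84 CPM, a ratio of 0.528 whose interval (0.211 to 1.23) spans 1.

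Fibrillar collagens were higher in the whole sorted library than in the basal class, from which the threshold keeps out most stromal cells. Their sum was 427 CPM against 47.9 CPM, 8.91-fold (7.43 to 10.7) higher. Col3a1 stood at 195 CPM (178 to 213) in sorted basal cells and 2.52 CPM in the basal class, Col1a1 at 80.8 and 2.52 CPM, and Col1a2 at 62.7 and 5.76 CPM. In the sorted library 69 cells (1.45%) with 3 or more fibrillar counts held 74.0% of the fibrillar counts, and their median Krt5, Krt14 and Acta2 count was 0, against 7 in the whole library. Such cells made up 1.61% of the whole total epithelial library. Their median depth was 429 counts in the sorted and 2086 counts in the total epithelial library. A cutoff of 3 counts is stricter at the lower depth, so the 2 shares do not compare how common such cells were. Among the 1758 sorted cells with 10 or more basal counts, the fibrillar ratio to the basal class was 2.23, close to the 2.29 of the basement membrane group in the same cells. Type V chains moved less than types I and III, with Col5a2 at 72.7 and 31.3 CPM. The summed level of 7 fibroblast markers was 3369 CPM in the sorted library and 1119 CPM in the basal class. Of that sum, Gsn, which is also an actin-severing protein of other cells, took 3215 and 979 CPM, while Pdgfra stood at 3.62 and 0.720 CPM.

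**Figure D5:**
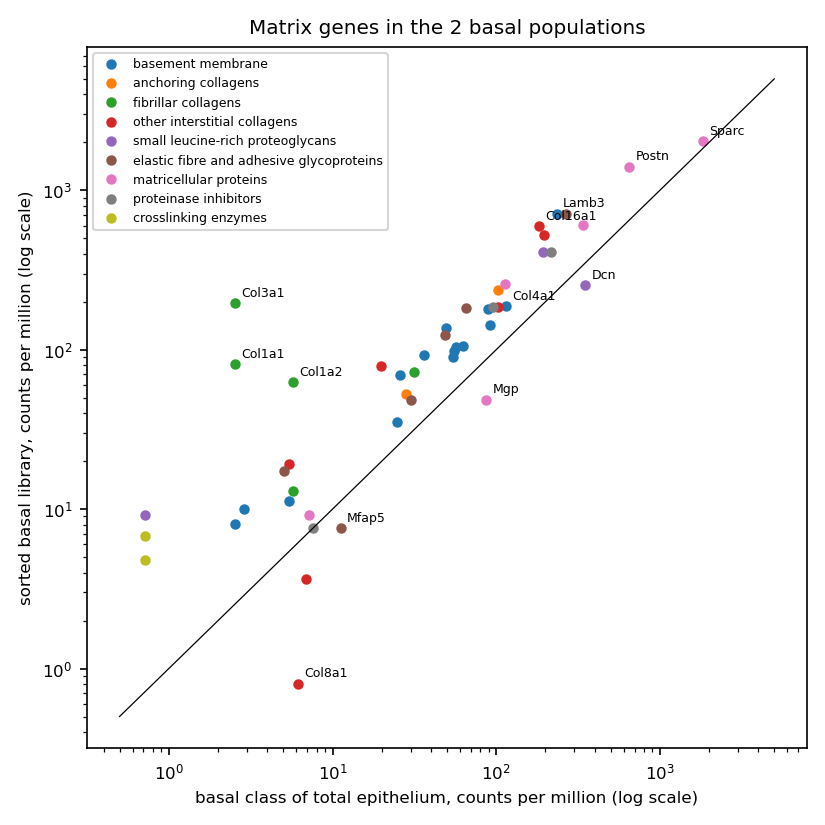
Level of matrix genes in the sorted basal library (vertical) against the basal class of the total epithelium (horizontal), in CPM on log axes, with points coloured by group and the line of equality. Genes with no count in 1 of the populations or in both are not drawn. Most points lie above the line, among them Col3a1 (195 against 2.52 CPM) and Col1a1 (80.8 against 2.52 CPM), and Col8a1, Mgp and Dcn lie below it.

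Genes that make, cut and bind the matrix were examined in 4 lists outside the members. Of 14 collagen-modifying enzymes with enough counts, 8 were at least 4-fold higher in basal than luminal cells (10.1% of all genes) and none in luminal cells (7.60% of all genes). Plod2, a lysyl hydroxylase, stood at 29.2 CPM in basal and 0.798 CPM in luminal cells, and the prolyl hydroxylase subunit P4ha2 at 15.5 and 45.3 CPM. Against the same 10.1% of all genes, 16 of 27 other matrix genes were at least 4-fold higher in basal cells, such as Fmod (fibromodulin) at 121 and 0.479 CPM and Spon2 at 460 and 1.91 CPM, and 1, Npnt, in luminal cells, against 7.60% of all genes. Among 13 matrix proteinases 9 were at least 4-fold higher in basal cells (10.1% of all genes), such as Mmp2 (gelatinase A) at 174 and 1.91 CPM, and 2 in luminal cells (7.60% of all genes), Mmp15 at 4.68 and 40.4 CPM and Mmp16 at 1.08 and 5.11 CPM. Of 14 matrix receptors 4 were at least 4-fold higher in basal cells, against 10.1% of all genes, among them the laminin receptors Itga6 at 246 and 37.0 CPM and Bcam at 293 and 53.0 CPM, and none in luminal cells. Itgav, at 43.9 and 42.1 CPM, and Itgb4, at 10.1 and 11.5 CPM, had ratios whose intervals span 1.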

How the data were processed

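The authors made 1 Chromium Single Cell 3′ library of each population, processed the reads with Cell Ranger and deposited UMI counts per gene and cell as whole numbers without normalization. Cell Ranger 1.2.1 and build mm10 are named in the submitters' processing notes, and the study's methods name v2.0. The annotation is not given in the sources used here. The study states slightly different cell numbers from the barcodes deposited. All 4771 and 3302 barcodes were used, with 2488704 and 9227651 counts in all, and no doublet caller was run: cells with both keratin sets stayed in the basal class.

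Counts were summed per class and given per 1000000 counts (CPM). A member was called at 10 or more counts over both classes and at least 4-fold (classes) or 2-fold (libraries, luminal sides), a class at 0 being set to 3 counts. Fixed-depth shares are exact expectations. Interval and call code was tested on simulated data. Tools were Python 3.11.15, numpy 2.4.6, scipy 1.17.1 and matplotlib 3.10.9. All 52 genes matched GENCODE M21 (GRCm38) by ID. Members with 100 or more counts were named with values, and the others briefly. Members, lists and thresholds were chosen with earlier results of these data known. The luminal side rule and the marker subsets of the classes were set after the tables were seen. Alternatives changed thresholds, scaling, depth and filters.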

Additional observations from a re-analysis of the deposited data

How the results depend on the processing

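Of 7 group ratios recomputed, the stromal to basal ratio of the basement membrane group reversed, from 1.18 to 0.987 with a basal threshold of 20 counts, and was 1.05 to 1.26 otherwise. With the same threshold the anchoring basal to stromal ratio of 24.0 was 3.78, and 2 alternatives without a stromal count gave it no value. These alternatives, and those of the anchoring basal to luminal ratio (44.4 to 81.1), were added after seeing the data. The fibrillar stromal to basal ratio of 123 was 82.5 with a basal threshold of 20 counts, 102 with a luminal threshold of 10, 99.6 without cells of both keratin sets, 88.7 as a mean over cells of CPM per cell, 87.1 without the deepest 5% of cells and, in an alternative added after seeing the data, 158 without stromal cells that had 2 or more basal markers. The basement membrane basal to luminal ratio was 5.59 as a mean over cells. At a fold of 2 the members higher in luminal cells numbered 6, with Dcn, Lama5 and Timp1 joining, and those higher in basal cells 36. The fibrillar ratio between sorted basal cells and the basal class fell from 8.91 to 2.23 among sorted cells with 10 or more basal counts. The share of basal cells with Sparc was 72.8% at 800 counts per cell, also added later. Of 434 recomputed ratios of single members, 391 stayed within their counting interval, 42 moved outside it and 1 reversed, the basal to luminal ratio of Lum at 1.12 with a luminal threshold of 10 counts. Calls at 4-fold were recomputed for basal over luminal, luminal over basal and stromal over basal cells only. Those lost in at least 1 alternative were Lum (3 alternatives) for luminal over basal cells and Col5a1 and Col6a2 for basal over luminal cells. For stromal over basal cells they were Sparcl1 (3), Timp1 (3), Hspg2, Timp2 and Lama2. Calls of basal over stromal cells and between stromal and luminal cells were not recomputed. No paired analysis was possible because each population is 1 library. Depth limits the stromal class most, where 3 counts are 16.3 CPM.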
